A study of Mus musculus with 298 samples.

Results

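Noradrenergic3 neurons are the cells of the mouse thoracic sympathetic ganglion whose deposited identity label reads Noradrenergic3. They were chosen by that label alone and numbered 75 cells of female and 28 of male mice, out of 298 cells in the series, 213 with a named identity and 193 labelled noradrenergic. The series profiled the RNA of single ganglion cells, and the question for this identity was which genes set it apart from the other named identities and how its cells varied among themselves. All mice carried the R26R-Tomato reporter and the Wnt1-Cre transgene, a recombinase that marks the neural crest lineage from which both sympathetic neurons and their glia arise. The mice were untreated as far as the labels say, and the labels name no strain background, animal or pool. Cells were therefore grouped into collections, meaning all cells of the same sex and age in postnatal days. Noradrenergic3 cells came from 7 collections: 6 cells at P11 (female), 12 at P29 (male), 13 at P30 (female), 43 at P31 (female), 10 at P33 (female), 3 at P34 (female) and 16 at P38 (male). The contrasts also used a few cells of other identities from female mice at P16 and P20 and male mice at P30. How the submitters assigned the identities is not stated in the sources used here, so contrasts between identities are given as descriptions, with no p-value.

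Sympathetic neurons make noradrenaline from tyrosine through tyrosine hydroxylase (Th), aromatic amino acid decarboxylase (Ddc) and dopamine β-hydroxylase (Dbh). They load it into vesicles with the transporter Slc18a2 and take it back up with Slc6a2. Many of them also release neuropeptides, among which neuropeptide Y is the best known for its action on blood vessels, and galanin is a second cotransmitter. The granin chromogranin A, encoded by Chga, is packed with amines and peptides in the large dense-core vesicles of such cells.

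Noradrenergic3 cells held 21265 to 65530 counts each (median 36658) and 5277 to 8406 detected genes (median 6750), and they came from 20 of the 24 capture chips. All levels below are counts per 10000 counts of the cells concerned. Total counts per cell were compared with those of the other noradrenergic identities. Beside Noradrenergic2, Noradrenergic3 had the lower mean total in 5 of 5 collections that held both, by 0.30 ± 0.13 on the log2 scale (SD, n = 5, two-sided exact sign-flip permutation test, p = 0.0625, the smallest that 5 collections allow, adjusted p = 0.25 over 4 comparisons). Sequencing depth and RNA content of a cell cannot be told apart in these totals. Markers of cholinergic neurons were close to absent, with a count of Chat in 2 Noradrenergic3 cells and of Slc18a3 in 2. The summed level of 18 markers of satellite glia and Schwann cells ran from 2.79 to 80.0 with a median of 7.34. Fibroblast markers had a median of 0 and a highest value of 99.8, which 1 cell at P30 (female) held. That cell carried 49.6% of the fibroblast marker counts found in all Noradrenergic3 cells, beside 83 counts of Th. Macrophage markers reached at most 1.09 in any cell, and C1qb, C1qc and Cx3cr1 were at 0 in all of them.

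The markers listed for the label were found in its cells. Where labels were assigned from the same transcriptomes, this is no independent check. Th, Dbh, Npy, Gal and the secretin receptor gene Sctr each had a count in every cell, Chga in all but 1 and the relaxin receptor gene Rxfp1 in 88. The enzymes were shared with the other noradrenergic identities, whereas Gal, Sctr and Chga had their highest mean in Noradrenergic3 among the 8 named identities. That held for 3 of these 7 markers, beside 481 of all genes tested (4.16%).

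Th lies at chr7:142892779-142899995 (GRCm38.p6, RefSeq), and its level in the 7 collections was 21.9 at P11 (female), 27.2 at P29 (male), 24.3 at P30 (female), 23.3 at P31 (female), 27.1 at P33 (female), 22.4 at P34 (female) and 28.9 at P38 (male). The mean was 25.0 ± 2.72 (SD, n = 7), close to the means of 22.9 in Noradrenergic1 and 25.5 in Noradrenergic2, and within the 24.3 to 30.2 of Noradrenergic4 and Noradrenergic5. Single cells ranged from 12.3 to 43.8, so Th was an even marker across the identity. Its promoter holds a full cAMP response element, the letters TGACGTCA, printed in capitals and lying 38 to 45 bases before the RefSeq start. The same letters, on either strand, stand in 508 of the 32851 RefSeq promoter entries of the same 250 bases (1.55%), and among the 5 of 7 markers with an entry in that table only the Th promoter holds them. The stretch is chr7:142900007-142900066 on the minus strand, and a match of letters is a description and no evidence of binding.
Th promoter: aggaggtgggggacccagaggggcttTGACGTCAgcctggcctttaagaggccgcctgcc

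Dbh (chr2:27165507-27183204) averaged 17.7 ± 4.99 (SD, n = 7). The P11 collection was far below the rest at 6.93, and the other 6 collections lay between 17.4 and 21.6. The means of the other noradrenergic identities, 15.6 to 20.95, lay within 1 SD of that value.

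Npy (chr6:49822710-49829507) was the most abundant marker. Its level was 128 at P11 (female), 132 at P29 (male), 112 at P30 (female), 120 at P31 (female), 155 at P33 (female), 135 at P34 (female) and 146 at P38 (male). The mean of 132 ± 14.7 (SD, n = 7) stood next to 158 ± 13.3 in Noradrenergic2, and all 4 collections with at least 3 cells of both had the lower value in Noradrenergic3. In Noradrenergic1, Noradrenergic4 and Noradrenergic5 the means were 29.8, 21.97 and 11.3. Npy thus separated a pair of identities from the other noradrenergic cells, but not Noradrenergic3 from Noradrenergic2.

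Gal (chr19:3409915-3414544), which encodes galanin, averaged 34.5 ± 8.06 (SD, n = 7), from 20.7 at P11 (female) to 47.3 at P34 (female). The means elsewhere were 15.2 in Noradrenergic1, 10.8 in Noradrenergic2, 8.04 in Noradrenergic4 and 1.72 in Noradrenergic5. Overlap came from a Noradrenergic1 library at P31, which exceeded every Noradrenergic3 collection except P34, and from the P33 Noradrenergic2 library at 26.1, which exceeded the P11 collection. Single Noradrenergic3 cells spanned 3.63 to 89.8.

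Chga (chr12:102554941-102565027) averaged 5.72 ± 1.54 (SD, n = 7), against 1.04 in Noradrenergic1, 2.27 in Noradrenergic2, 2.06 in Noradrenergic4 and 1.19 in Noradrenergic5. The 2 male collections were highest, at 7.85 and 7.54, and the 5 female ones lay between 3.48 and 5.64.

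Sctr (chr1:120006879-120063539) averaged 5.22 ± 0.959 and Rxfp1 (chr3:79641600-79737951) 0.603 ± 0.324 (SD, n = 7). The Rxfp1 mean in Noradrenergic2 was 0.607, a difference far smaller than the spread between collections, while in Noradrenergic4 and Noradrenergic5 it was 0.0771 and 0.0408.

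**Figure D1:**
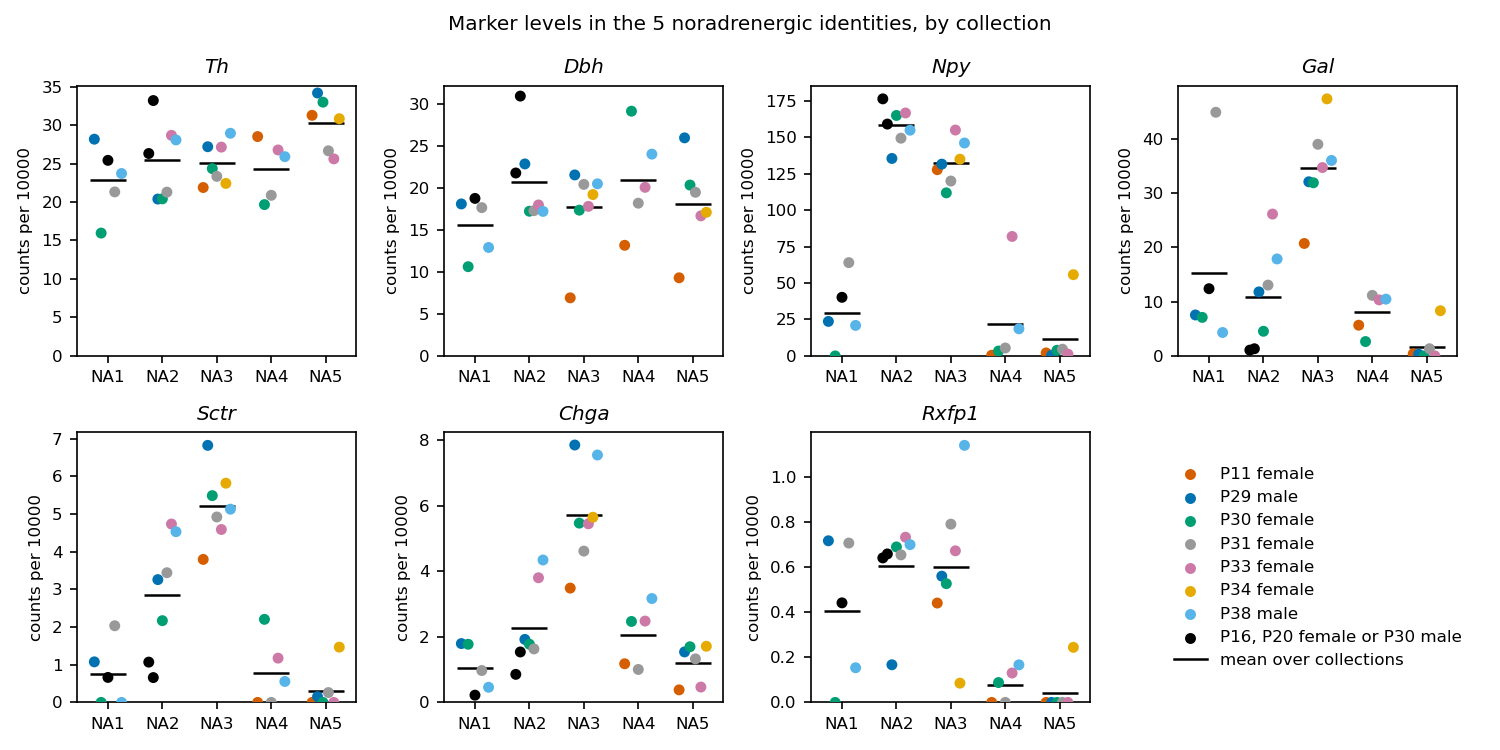
Each panel plots the level of 1 marker, in counts per 10000, in the 5 noradrenergic identities (NA1 to NA5), with 1 point per collection and a line at the mean over collections. Th and Dbh overlap across identities, Npy is high in NA2 and NA3, and the NA3 means of Gal (34.5), Sctr (5.22) and Chga (5.72) are the highest of the 5; the NA3 Dbh point far below the others is P11 at 6.93.

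Against the other 4 noradrenergic identities weighted equally, 201 of 11555 genes were called (edgeR, adjusted p under 0.05), which is 1.74% of those tested. Of these, 169 were higher and 32 lower in Noradrenergic3. The split depended on scaling: with relative log expression size factors it was 115 higher and 45 lower, and with DESeq2 63 and 46. The median over all genes was a log2 fold change of 0.16, against 0.05 and 0.0034 under those settings, so the folds below should be read relative to that shift. In this contrast 4 of the 7 markers were called: Gal (log2 fold change 2.60, SE 0.33), Sctr (2.56, SE 0.37), Rxfp1 (2.41, SE 0.33) and Chga (1.98, SE 0.18). Npy (2.87, SE 0.81), Dbh (0.11) and Th (0.09) were not. The signs of the last 2 turned negative under DESeq2, relative log expression size factors and a stricter filter.

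Among the genes that were higher in Noradrenergic3 in 6 of 6 collections with at least 3 cells on both sides, Gda, which encodes the purine-degrading enzyme guanine deaminase, had a pooled level of 12.2 against 4.08 in the other noradrenergic cells (log2 fold change 2.51, SE 0.40). Pcdh7, a protocadherin of cell adhesion, was at 2.58 against 1.58, and Ecel1, an endopeptidase-like membrane protein induced in injured neurons, at 1.44 against 0.403. Adm, which encodes the vasodilator peptide adrenomedullin, was at 1.35 against 0.528. The calcium-binding genes Ncald (log2 fold change 1.06) and S100a13 (1.12), the copine Cpne9 (1.25), Nrep (1.12) and B230216N24Rik (1.51) completed the set. Cpne9, Pcdh7, Ncald, S100a13 and B230216N24Rik were not called against Noradrenergic2, where their log2 fold changes were 0.05, -0.22, 0.09, 0.30 and 0.01. The mean level of Cpne9 over collections was 1.08 in Noradrenergic3 and 1.23 in Noradrenergic2. The level in the other identities is pooled over their cells, in which Noradrenergic2 dominates, whereas the fold weights identities equally.

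The genes that were lower in 6 of 6 collections were led by the 2 subunits of the 5-HT3 receptor, the serotonin-gated cation channel. Htr3a (chr9:48899213-48911152) was at 0.437 in Noradrenergic3 and 3.60 in the other noradrenergic cells (log2 fold change -2.81, SE 0.50), and Htr3b at 0.216 and 1.45 (-2.12, SE 0.27). By collection, Htr3a in Noradrenergic3 was at 0 at P11 (female), 0.187 at P29 (male), 0.547 at P30 (female), 0.393 at P31 (female), 0.428 at P33 (female), 0 at P34 (female) and 0.893 at P38 (male). Every one of these lay below the mean of each other noradrenergic identity, which was 10.2 in Noradrenergic1, 4.22 in Noradrenergic2, 0.943 in Noradrenergic4 and 2.05 in Noradrenergic5. Noradrenergic4 was not separated by these genes: neither was called against it (Htr3a -1.26, SE 0.66, and Htr3b -0.48, SE 0.44), and its Htr3a levels at P11 (0.235) and P30 (0.617) lay within the Noradrenergic3 range. Tmem176b (-1.78), Ddah1 (-1.45), which degrades methylarginine inhibitors of nitric oxide synthase, Clu (-1.09), which encodes the secreted chaperone clusterin, Spock3 (-0.93) and Ramp1 (-0.85), the accessory subunit of the calcitonin gene-related peptide receptor, were the others.

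Counts of list members called in either direction are to be read beside the 1.74% called over all genes. By function, 3 of 12 tested genes of catecholamine handling were called higher: the vesicular transporter Slc18a2 (log2 fold change 0.72), monoamine oxidase Maob (0.75) and the cofactor-recycling enzyme Qdpr (0.63). The median over the 12 was 0.20, beside 0.16 over all genes. Of 14 neuropeptide genes 3 were higher, Gal, Adm and Tac2, which encodes neurokinin B and was rare at a level of 0.0884. Of 11 genes of granins and prohormone processing, Chga and Chgb (0.91) were higher. Of 19 receptors for peptides and hormones, only Sctr and Rxfp1 were called.

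Called members of the remaining lists are to be read beside the same 1.74% over all genes. Among 12 receptors for neurotrophic factors and cytokines, Gfra3, the artemin coreceptor, was higher (log2 fold change 2.01, SE 0.33) and Gfra2, the neurturin coreceptor, lower (-2.31, SE 0.49). The muscarinic receptor Chrm2 (0.65) and the nicotinic subunit Chrna7 (1.87) were the members called of 7 cholinergic receptor genes. Adra2a, the α2A-adrenergic autoreceptor, was lower (-1.69, SE 0.27) and was the 1 called among 8 adrenergic and purinergic receptors. Of 36 voltage-gated and HCN channel genes, the sodium channel genes Scn9a (0.72) and Scn3b (0.85) were higher. In the 27 genes of axon guidance and adhesion, Tenm2 (1.92), Epha5 (0.87), Cntn1 (0.74) and Nrp1 (0.67) were higher. Tbx3 (-1.96, SE 0.29) was the 1 gene called of 14 subtype transcription factors. None of 14 sympathetic lineage transcription factors, 23 respiratory chain genes, 22 ribosomal protein genes, 20 genes of vesicle release, 19 immediate-early genes, 14 chaperones or 17 glial markers was called.

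A few markers of other cell types were called higher as well, and their part in these contrasts was not tested. They were Col3a1 (log2 fold change 1.41) and Lum (2.48) of 7 fibroblast genes, Flt1 of 4 endothelial genes, and Rgs5 (1.85) and Myh11 of 3 mural genes. These counts are again to be read beside the 1.74% called over all genes. Of the endothelial and mural marker counts in Noradrenergic3 cells, 23.2% and 23.9% lay in 1 cell each. Without the P30 female collection, which held the cell rich in fibroblast markers, Col3a1 was at 1.56 and no longer called, while Rgs5 stayed called at 1.94. Lum, Flt1 and Myh11 were not fitted without it. Col1a1 was not called in this contrast (1.46). It was called against Noradrenergic2 (4.09), but not without P30 female (3.19).

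Noradrenergic2 was the nearest identity by count of called genes: 64 of 11555 (0.554%), with 23 higher and 41 lower in Noradrenergic3. Among the lower genes were both subunits of the serotonin receptor. Htr3a was at 6.43 in Noradrenergic2 and 0.187 in Noradrenergic3 at P29 (male), 4.93 and 0.547 at P30 (female), 3.67 and 0.393 at P31 (female), 1.33 and 0.428 at P33 (female), and 3.13 and 0.893 at P38 (male). The values of the 2 identities did not overlap in those 5 collections, and the fitted log2 fold changes were -3.03 (SE 0.56) for Htr3a and -2.90 (SE 0.28) for Htr3b.

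A count of Htr3a was present in 33 Noradrenergic3 cells (32.04%) and in 36 of 39 Noradrenergic2 cells (92.3%). When every cell was thinned to 15000 counts, no cell of either identity was too shallow, and the shares were 18.4% (95% exact interval 11.5 to 27.3%) and 89.7% (75.8 to 97.1%). These intervals cover counting error only.

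Other genes lower than in Noradrenergic2 included Brinp1 (log2 fold change -2.33, SE 0.30), the T-box factor Tbx3 (-2.30, SE 0.32), Hpca (-1.84, SE 0.28), which encodes the neuronal calcium sensor hippocalcin, and Spock3 (-1.40, SE 0.25). The oestrogen receptor gene Esr1 (-2.50), the neurotrophin-3 receptor gene Ntrk3 (-1.99) and Ret (-0.98), the signalling receptor of the GDNF family, were lower too. Among those higher, Thy1, a glycoprotein of the neuronal surface, was at 2.87 against 0.562 (log2 fold change 2.23, SE 0.37) and Ecel1 at 1.44 against 0.423 (1.48, SE 0.28). Adm (1.14), Nrep (1.24), the netrin-G gene Ntng1 (1.36) and Arhgap36 (3.03, SE 0.47) were also higher. Tac2 had 34 counts in Noradrenergic3 cells and 0 in the 39 Noradrenergic2 cells, which makes it at least 5.09-fold higher when 3 counts are set as the limit over the Noradrenergic2 cells.

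Of the 7 markers only Chga was called against Noradrenergic2, at 5.58 against 2.37 (log2 fold change 1.35, SE 0.24). It was also the only marker called against each of the 7 other named identities. Its call against Noradrenergic2 was lost with DESeq2 (1.40), with a stricter filter (1.32) and without a term for the collection (1.25). Gal was at 35.6 against 14.6 and higher in 4 of 4 collections, but was not called (1.304, SE 0.47).

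**Figure D2:**
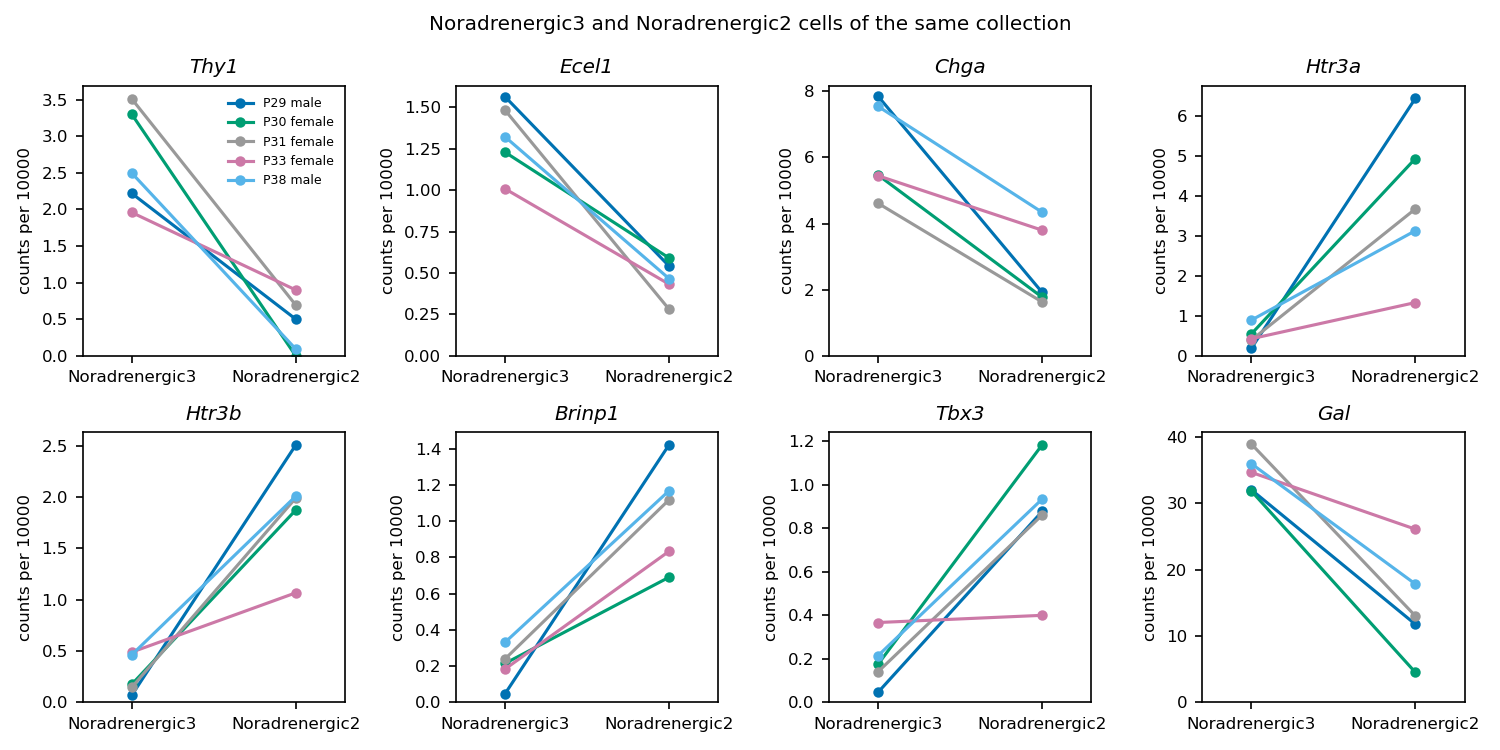
Pooled levels, in counts per 10000, of 8 genes in Noradrenergic3 and Noradrenergic2 cells of the 5 collections that held both identities, with a line joining the values of 1 collection. Thy1, Ecel1, Chga and Gal fall from Noradrenergic3 to Noradrenergic2 in every collection, and Htr3a, Htr3b, Brinp1 and Tbx3 rise, with the smallest step for Tbx3 at P33 (0.367 to 0.4).

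More genes separated Noradrenergic3 from the other identities, and the same libraries of Noradrenergic3 enter each of these contrasts. Called genes numbered 141 against Noradrenergic1 (1.22%), 206 against Noradrenergic4 (1.78%), 256 against Noradrenergic5 (2.22%), 342 against Glutamatergic (2.96%), 403 against Ach2 (3.49%) and 551 against Ach1 (4.77%). These identities hold 4 to 23 cells each.

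Against Noradrenergic1 (10 cells), the adhesion gene Tenm4 (log2 fold change 3.74), Gda (3.54) and the angiotensin receptor gene Agtr1a (3.25) led the higher genes. Pde1a, a calcium-dependent phosphodiesterase, led the lower ones that had more than a few counts (-5.90, SE 0.52). Cpne5 and the GABA-A receptor subunit gene Gabrg1 had 1 count each over all Noradrenergic3 cells and 33 and 34 in the 10 Noradrenergic1 cells. These are ratios of 437 (95% counting interval 73.2 to 17781) and 450 (75.5 to 18304). Only 1 collection held at least 3 cells of both identities.

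Against Noradrenergic4 (18 cells), Cpne8 (3.39), Pcp4 (3.32) and Plscr1 (3.14) were higher in 3 of 3 collections, and the feeding peptide gene Agrp (-5.04), the endothelin gene Edn3 (-4.70) and Cyp2j12 (-2.99) lower in 3 of 3. Against Noradrenergic5 (23 cells), Npy was at 128 against 6.27 and Gal at 35.6 against 1.33. Chodl had 704 counts in Noradrenergic3 and 2 in Noradrenergic5, a ratio of 75.5 (95% counting interval 20.8 to 624). Slc18a1, the vesicular monoamine transporter typical of chromaffin cells, was lower (-5.43, SE 0.49), as were Fbp2 (-4.79) and the cholecystokinin receptor gene Cckar (-4.31).

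Cells were also matched, one by one, to mean profiles of each identity built from the other collections over 1000 variable genes. Of the Noradrenergic3 cells, 90 correlated best with Noradrenergic3, 11 with Noradrenergic2 and 2 with Noradrenergic4. The second-best profile was Noradrenergic2 for 84 of those 90. The median Spearman correlation was 0.833 with Noradrenergic3, 0.804 with Noradrenergic2, 0.736 with Noradrenergic5, 0.732 with Noradrenergic4 and 0.712 with Noradrenergic1. None of the 39 Noradrenergic2 cells was placed with Noradrenergic3, while 2 Noradrenergic1, 2 Noradrenergic4 and 2 Noradrenergic5 cells were. All 6 cells at P11 matched their label although their reference came from older mice. Where identities were assigned from the same transcriptomes, such matching is no independent check.

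Pairs of Noradrenergic3 cells from the same collection, thinned to 15000 counts, had a median Spearman correlation of 0.574 (0.551 to 0.631 over 7 collections). Pairs of a Noradrenergic3 and a Noradrenergic2 cell had 0.570, those with Noradrenergic5 0.552 and those with Noradrenergic4 0.537. The ranges by collection of all these pairs overlapped that of Noradrenergic3 pairs. They were 0.556 to 0.589 with Noradrenergic2, 0.542 to 0.592 with Noradrenergic5 and 0.330 to 0.599 with Noradrenergic4. The lowest value with Noradrenergic4 was at P30 (female).

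Variation from cell to cell was measured for the 5668 genes with a mean of at least 1 count per Noradrenergic3 cell. The measure was the extra-Poisson coefficient of variation (CV), the spread of a gene around its collection's mean beyond counting noise, as a fraction of that mean. Most genes were even: the median CV was 0.271 and 89.1% lay under 0.5. The markers followed suit, with CVs of 0.20 for Th, 0.23 for Dbh, 0.28 for Npy, 0.26 for Sctr, 0.37 for Gal, 0.46 for Rxfp1 and 0.49 for Chga. A CV of at least 1 was reached by 44 genes (0.776%), of which 25 reached it both in the P31 female cells and in the cells of all other collections. Just inside that threshold lay Hpca (1.01), and just outside it Omp (0.989).

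By gene list, neurofilament and cytoskeleton genes (median CV 0.188), respiratory chain genes (0.183) and ribosomal protein genes (0.190) lay under the median of all genes. Immediate-early genes (median 0.814, 3 of 14 at a CV of at least 1) and glial markers (0.820, 3 of 7) lay far above it. Over all genes 0.776% reached that CV.

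The gene with the largest CV, Apod (3.46), had 92.1% of its 126 counts in 1 cell at P30 (female). That was the cell rich in fibroblast markers, with 116 counts of Apod and 161 of Dcn. Col3a1 (3.13), Dcn (3.08) and Col1a2 (2.07), matrix genes of fibroblasts, followed the same cell, with 49.3%, 64.1% and 34.2% of their counts in it. A rank near the top can thus come from very few cells. The chemokine gene Cxcl1 (2.53), 1700094D03Rik (2.87) and the antiviral gene Ifitm3 (1.66) likewise had 42.5%, 38.5% and 26.1% of their counts in 1 cell.

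Htr3a (CV 2.43) had counts in 33 cells of 5 of 7 collections, with 44.6% of its 168 counts in 3 cells. Counts were found for the retinoid-binding gene Crabp1 (2.47) in 39 cells of all 7, the lipoprotein gene Apoe (1.70) in 60 cells and the glial fatty-acid-binding gene Fabp7 (1.54) in 49. The interferon-inducible genes Ifi27l2a (2.09), Cxcl10 (1.95) and Ifit1 (1.56), the transcription factors Klf4 (1.81), Atf3 (1.5) and Hes1 (1.5), and Cyr61 (1.88), Atpaf2 (2.15) and Dmkn (1.62) made up the rest of the top 20.

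**Figure D3:**
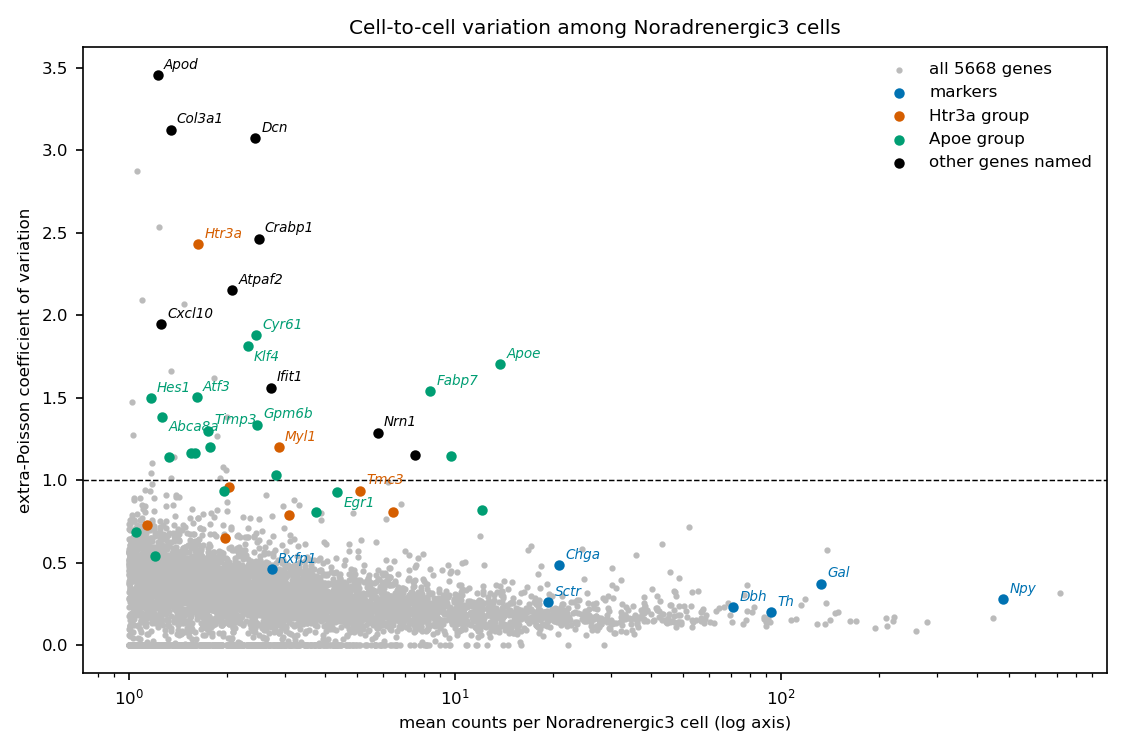
Each point is 1 of 5668 genes, with its mean counts per Noradrenergic3 cell on a log axis and its extra-Poisson CV; the dashed line marks a CV of 1, which 44 genes reached. The 7 markers (blue) lie under 0.5, while Htr3a (2.43), Apoe (1.70) and Fabp7 (1.54) lie far above genes of like abundance.

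Genes that varied together were sought among the 150 most variable genes of the 43 P31 female cells and then looked up in the 60 Noradrenergic3 cells of the other collections. Of 15 groups found, 2 kept a mean pairwise correlation of at least 0.2 elsewhere, beside 0.0192 over all pairs of the 150 genes. The next highest had 0.0923. The correlations are across cells that share a library depth scale and a collection, and the residuals were taken within collections.

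The first group had 9 genes: Htr3a, Tmc3, Myl1, Spock3, Ramp1, Hoxc8, Susd5, Antxr2 and Sec23ip. Their mean pairwise correlation was 0.453 in the P31 female cells and 0.335 elsewhere. By collection it was 0.508 at P38 (male), 0.303 at P30 (female), 0.266 at P29 (male), 0.105 at P33 (female) and 0.0935 at P11 (female). In cells of the other identities the same genes showed little covariation, with 0.0684 in 35 Noradrenergic2 cells, -0.0311 in 15 Noradrenergic4 cells and 0.0306 in 17 Noradrenergic5 cells. The group was chosen in Noradrenergic3 cells, so a higher value there is partly built in.

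Summed over the 9 genes, the level in Noradrenergic3 cells ran from 0.494 to 33.4 with a median of 4.83. Noradrenergic2 cells ran from 9.31 to 36.9 with a median of 19.6, so the upper Noradrenergic3 cells lay within the Noradrenergic2 range. All 9 genes were lower in Noradrenergic3 than in Noradrenergic2 in 4 of 4 collections, a direction not counted here over all genes. Beside 0.554% called over all genes in that contrast, 6 of the 9 were called: Htr3a, Spock3 (-1.40), Ramp1 (-1.26), Antxr2 (-1.25), Hoxc8 (-1.07) and Susd5 (-1.02). Tmc3 (-1.64, SE 0.44), Myl1 (-1.48, SE 0.52) and Sec23ip (-0.35, SE 0.37) were not called.

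Several genes outside the group went with it in both sets of cells. These genes were picked after their values were seen, for a correlation of at least 0.4 in size in the P31 female cells and in the other cells. The 10 that rose with it included Hpca (0.612 and 0.731), Chodl (0.575 and 0.686), Id2 (0.732 and 0.568), an inhibitor of basic helix-loop-helix factors, Mrap2 (0.534 and 0.524) and Kitl (0.578 and 0.422), the ligand of the Kit receptor. The 5 that ran against it were Gal (-0.493 and -0.575), Thy1 (-0.477 and -0.689), Anxa5 (-0.566 and -0.535), Epb4.1l3 (-0.448 and -0.454) and Lix1 (-0.622 and -0.421).

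Gal was the 1 marker to do so. Its correlation was negative in each of the 6 collections with more than 3 cells, from -0.0467 at P29 (male) to -0.753 at P38 (male). Chga (-0.233 and -0.442) and Sctr (-0.389 and -0.0912) had negative values too, as did Dbh (-0.210 and -0.140), while Th (-0.0895 and 0.131), Rxfp1 (0.0816 and -0.0373) and Npy (0.115 and 0.357) did not run against the group in both sets. The group's mean residual was nearly unrelated to the total counts of a cell (-0.124).

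The same axis ran through the profile matching. The 9 genes were left out of the profiles. The difference between a cell's correlation to Noradrenergic3 and to Noradrenergic2 was then taken and centred within collections. It correlated at -0.759 with the mean residual of the 9 genes, and at -0.535 to -0.891 in the 6 collections with more than 3 cells. With those genes left out, the uncentred differences of Noradrenergic3 cells ran from -0.0286 to 0.0653. With the 9 genes kept in, Noradrenergic3 cells lay at differences of -0.0378 to 0.0814 and formed a continuous spread. In those full profiles 25 of them lay within 0.02 of equal correlation. Noradrenergic2 cells, also in the full profiles, lay between -0.0663 and -0.000700.

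The chips did not hold these cells evenly. Among the P31 female cells, a count of Htr3a was found in 6 of 11, 8 of 11, 2 of 9 and 0 of 12 cells on 4 chips, and the median group level on those chips was 7.28, 5.24, 7.67 and 3.49. The part of the chip in the covariation was not tested.

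**Figure D4:**
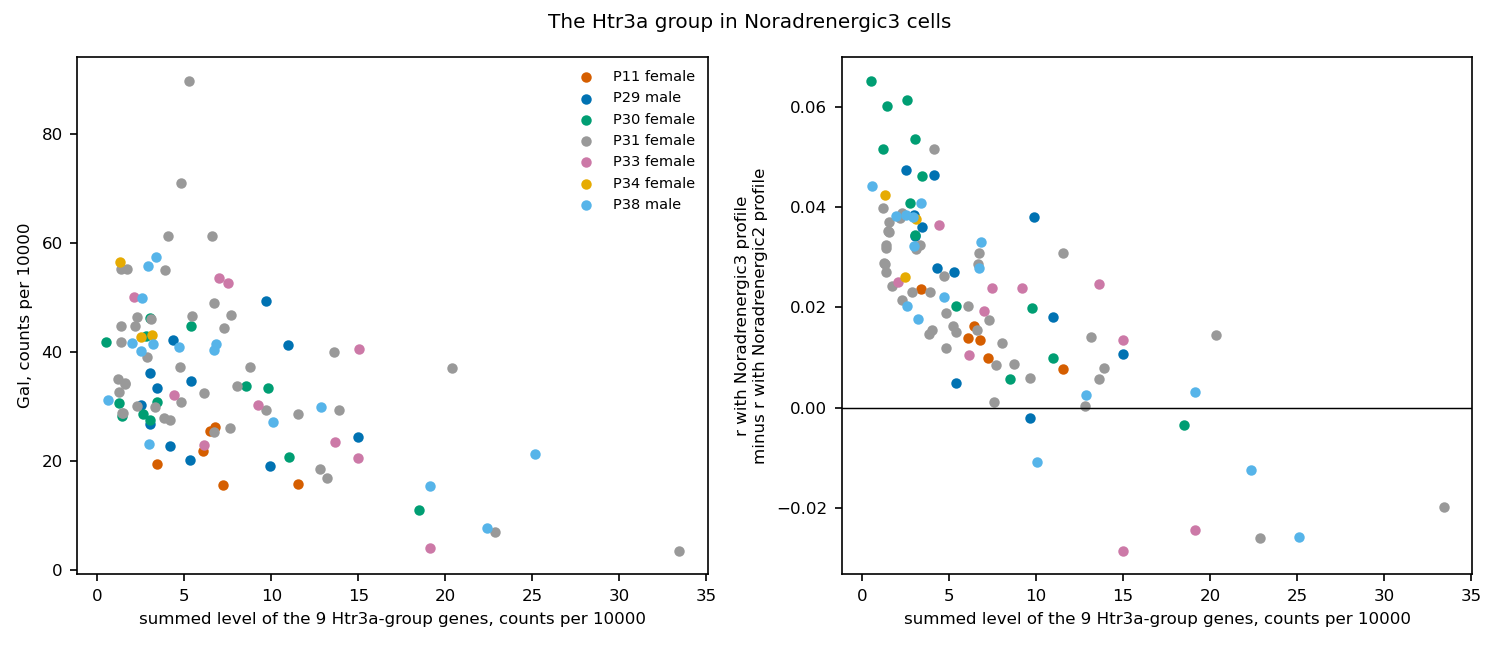
Each point is 1 Noradrenergic3 cell, coloured by collection, with the summed level of the 9 Htr3a-group genes on the horizontal axes (counts per 10000, 0.494 to 33.4). On the left, Gal tends to be lower at a high group level, with 3.63 in the cell of highest group level, but not in every cell (37.14 at a group level of 20.35). On the right, the difference between a cell's correlation with the Noradrenergic3 and Noradrenergic2 profiles tends to fall as the group level rises. The 9 genes are left out of the profiles there. The r of -0.759 is for the mean residual of the 9 genes and differences centred within collections, not for the plotted values.

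The second group had 22 genes, led by Apoe, Fabp7 and Sparc. It joined genes of satellite glia (among them Apoe, Fabp7 and Dbi of the marker list, with Abca8a and Gpm6b) and immediate-early or stress genes (Egr1, Atf3, Junb, Klf4 and Gadd45g). The mean pairwise correlation was 0.504 in the P31 female cells and 0.319 elsewhere, and in other identities it was 0.388 in Noradrenergic2, 0.357 in Noradrenergic4 and 0.3004 in Noradrenergic5. The summed level in Noradrenergic3 cells ran from 1.04 to 126 with a median of 9.12.

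The group followed the 14 glial markers that are not its members (0.651 in P31 female cells, 0.845 elsewhere) and the 15 immediate-early list genes that are not (0.771 and 0.613). Its 5 immediate-early members and its 4 members from the glial list correlated at 0.864 in the P31 female cells and at 0.206 elsewhere. The glial markers at the highest summed level, 80.0, were in a P31 female cell. Of the 18 glial markers only Erbb3 was at 0 in all cells of that collection. Erbb3 was also at 0 in every other collection except P30 (female). Among the 7 markers the correlation with the group that was largest in size was Dbh at -0.330 outside P31 and Chga at 0.173 in the P31 female cells. The 2 groups were nearly unrelated to each other (0.112). How far RNA of attached glia enters the variation of these genes was not tested.

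Another group held interferon-inducible genes. Ifit1, Oasl2, Bst2 and Samd9l stood in a group of 8 genes with a mean correlation of 0.404 among the 43 P31 female cells and 0.0263 elsewhere, beside 0.0192 over all pairs; the difference between the sets of cells was not tested. Ifit1, which binds foreign RNA, had its highest level at P31 (female), 1.11, beside 0.711 at P38 (male), 0.612 at P33 (female), 0.374 at P29 (male), 0.332 at P30 (female), 0.257 at P34 (female) and 0 at P11 (female). Single cells reached 11.9 for Ifit1, 5.16 for Oasl2 and 4.39 for Bst2. The promoters of Ifit1, Bst2 and the chemokine gene Cxcl10 hold the paired half-sites of an interferon response element, GAAA, any 2 bases, and GAAA again, on either strand. They are shown because Ifit1 and Bst2 are members of that group and Cxcl10, which is not a member, is another interferon-inducible gene among the 20 most variable. Of the 8 interferon-inducible genes named, 3 of the 6 interferon-inducible genes with a promoter entry hold the pair within 250 bases before their start, beside 978 of 32851 entries (2.98%). These genes and the motif were picked after the values were seen. Capitals mark the matched half-sites and the bases between them, on GRCm38.p6 with start sites from RefSeq. The stretches are chr19:34640769-34640828 on the plus strand for Ifit1, where the pair stands on the opposite strand, chr8:71537565-71537624 on the minus strand for Bst2 and chr5:92349068-92349127 on the minus strand for Cxcl10.
Ifit1 promoter: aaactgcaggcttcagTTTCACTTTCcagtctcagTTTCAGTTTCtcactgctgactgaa
Bst2 promoter: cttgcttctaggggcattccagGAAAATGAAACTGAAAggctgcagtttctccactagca
Cxcl10 promoter: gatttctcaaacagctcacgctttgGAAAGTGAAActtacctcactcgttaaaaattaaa

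The P11 collection, 6 cells of 1 chip, stood apart from the 6 older collections. Of the genes at a level of at least 1 in either age, 116 of 2203 were more than 2-fold higher at P11 than the mean of the 4 older female collections and above all 6 others (5.27%), and 134 were lower by the same rule (6.08%). With 1 collection at P11 there is no replicate check and no test, and age cannot be told apart from the chip. When each collection in turn was set against the rest, P11 differed at 11.04% of genes, P34 with its 3 cells at 5.26%, and the others at 0.0483 to 0.765%.

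Of 11 catecholamine genes at that level, 3 were lower at P11 and none higher, beside 6.08% of all genes lower. Dbh was at 6.93 against 18.7 ± 1.40 in the older female collections (SD, n = 4), the noradrenaline transporter Slc6a2 at 12.1 against 30.3 ± 3.56, and Maob at 2.34 against 6.01 ± 0.930. The summed level of 14 catecholamine genes had a median of 84.4 over the 6 cells (74.5 to 104), and of 131 to 151 in the other collections, in which the lowest single cell was at 101.6. Th, at 21.9, was just under the lowest older collection (22.4), Npy, at 128, lay within the range of the older collections, and Slc18a2 was at 10.15, below the 15.1 to 17.4 of the other collections but within 2-fold.

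Genes lower at P11 included Thy1, at 0.353 against 3.13 ± 0.806, the calcium-binding gene S100a6, at 1.32 against 14 ± 3.08, and Ngfr, the low-affinity neurotrophin receptor, at 1.10 against 3.25 ± 0.726. The growth factor gene Fgf1 had 1 count at P11 and 445 in the older female cells, a pooled ratio of 39 (95% counting interval 6.96 to 1544), and Cpne9 had 3 and 290, a ratio of 8.47 (2.87 to 41.3). Dmkn had 2 and 172, a ratio of 7.54 (2.06 to 62.7).

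Genes higher at P11 were led by Nnat, the neuronatin gene of developing neurons, at 2.56 against 0.308 ± 0.295 (SD, n = 4), an 8.31-fold difference. Ifitm2 (7.60-fold), Marcksl1 (6.89-fold), BC005764 (6.25-fold), the cell-cycle inhibitor gene Cdkn1a (6.10-fold) and Gm1673 (4.70-fold) followed. Nrep was at 4.85 against 1.33 ± 0.281, and Adm at 2.69 against 1.07 ± 0.1503. Of 21 ribosomal protein genes at that level, Rpl13, Rpl7 and Rps12 were higher by 3.42, 2.22 and 2.24-fold, beside 5.27% of all genes higher. The summed level of 22 such genes was 131 to 204 per cell at P11, with medians of 100 to 126 in the other collections.

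Glial and immediate-early genes were low at P11 together. Fabp7 had 2 counts in the 6 cells, a pooled ratio of 31.9 in favour of older females (95% counting interval 8.79 to 264), and Apoe, whose 6 counts all lay in 1 cell, was at 0.265 against 3.09 ± 1.48. Of 7 immediate-early genes at that level, Fos, Fosb, Egr1, Dusp1 and Klf4 were lower, beside 6.08% of all genes. Fos was at 0.618 against 3.01 ± 0.241. The 18 glial markers summed to 2.79 to 9.48 in P11 cells, with medians of 5.55 to 16.5 in the other collections. At P11, 8 of the markers were at 0 in all 6 cells, including Sox10. In the other collections 0 (P30, female) to 4 (P34, female) were at 0, and Sox10 was at 0 also at P34 (female) and P38 (male). The part of glial RNA in the other differences at P11 was not tested.

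**Figure D5:**
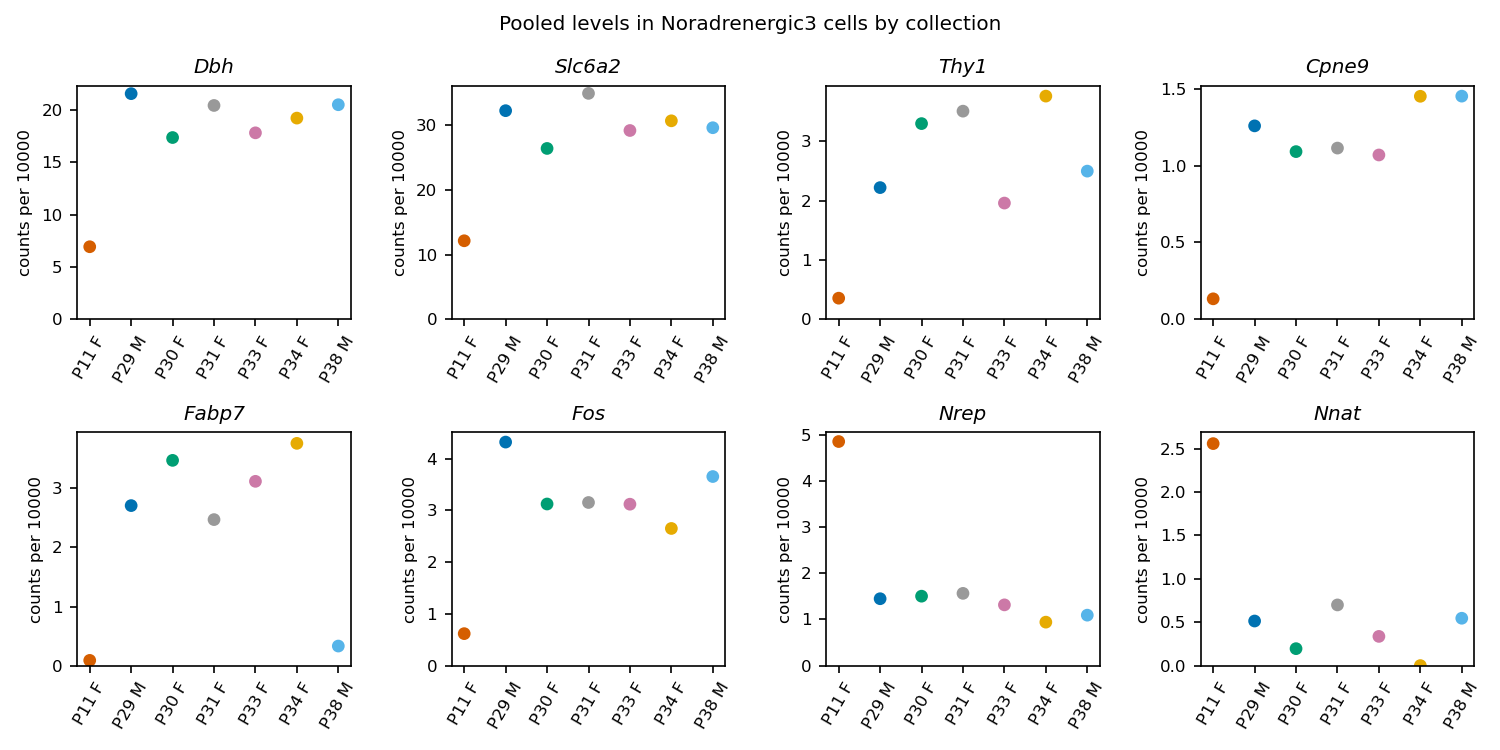
Pooled levels, in counts per 10000, of 8 genes in the Noradrenergic3 cells of each of the 7 collections (F, female; M, male). Dbh (6.93), Slc6a2 (12.1), Thy1 (0.353), Cpne9, Fabp7 and Fos are lowest at P11, Nrep (4.85) and Nnat (2.56) highest, and Fabp7 is also low at P38 (0.331).

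Sex was compared over 5 female and 2 male collections, a test independent of the rule that chose the cells, and 3 of 10141 genes were called (0.0296%, edgeR, adjusted p under 0.05). All 3 are sex-linked. Xist and Tsix, whose reads cannot be told apart where strand is not stated, had counts in 75 of 75 female cells and 0 of 28 male cells, and the Xist level was at least 105-fold higher in female cells with 3 counts as the limit over the male cells. A count of 0 in 28 cells allows a share of cells with a count of up to 10.7%, which limits detection and not expression. Ddx3y had 116 counts in male and 1 in female cells, a ratio of 316 (95% counting interval 55.6 to 12585). At an unadjusted p under 0.05 there were 290 genes, and DESeq2 called 3 as well. Chga had a higher level in both male collections (7.85 and 7.54) than in all 5 female ones, but was not called (log2 fold change 0.63, SE 0.19, edgeR adjusted p = 0.9998). With 2 male collections the design is small. On simulated data it recovered 34% of 2-fold and 98% of 4-fold changes and called 4 unchanged genes. The changed genes were drawn from well-counted ones and the spread was set by hand, so these rates do not cover rare genes.

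Noradrenergic3 was the most frequent noradrenergic label in each of the 7 collections with at least 3 noradrenergic cells, with shares of 66.7% (P11, female), 57.1% (P29, male), 61.9% (P30, female), 50.6% (P31, female), 45.5% (P33, female), 75% (P34, female) and 59.3% (P38, male). The exact 95% interval for the largest collection, P31, was 39.5 to 61.6%, and for P34, with 4 noradrenergic cells, 19.4 to 99.4%. The mean share was 58.2% in the 2 male and 59.9% in the 5 female collections, a difference within the spread (two-sided exact permutation test, p = 0.81, the smallest possible being 0.0476).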

How the data were processed

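RNA of single cells was read as a deposited table of raw counts per gene and cell, in which the authors had already counted reads. Per the labels' protocols, libraries were made from polyadenylated RNA with Tn5 and capture sites were inspected by eye; per the submitters' processing notes the build was mm10. The aligner, counter, annotation and strand setting are not given in the sources used here, and no doublet caller was run. The table holds 16892 genes, none mitochondrial or spike-in.

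Counts were summed per identity and collection (44 libraries). Genes with at least 20 counts and counts in at least 3 libraries were fitted with robust quasi-likelihood in edgeR 4.0.16 (R 4.3.3), TMM scaling and a term for the collection, which is shared by the identities; p-values were adjusted by Benjamini-Hochberg at 0.05. The labels name no animals, so tests measure only the spread between collections. A printed SE is the log2 fold change over the root of F and restates the test. Variation, gene groups, profile matching and the P11 comparison have no test. Named genes were the 7 markers; the 12 highest and 12 lowest fold changes against the other 4 noradrenergic identities, and the 3 highest and 3 lowest against each single one, among called genes with a level of at least 1 on the higher side and the same direction in every collection with at least 3 cells on both sides; up to 10 called genes for sex; the 6 highest and 6 lowest at P11; the 20 genes of largest CV and the members of groups that varied together; and, from 32 gene lists (457 of 473 genes in the table), the members called in a contrast. Other genes named were chosen after their values were seen. The members, lists and rules were chosen with earlier results of these data known. On simulated data the identity contrast recovered 22% of 2-fold and 88% of 4-fold changes (11512 genes, 100 changed at each fold). It also called 29 unchanged genes, a larger share of its calls than the threshold of 0.05 allows for. The changed genes were drawn from well-counted ones and the spread was set by hand, so these rates do not cover rare genes. Alternatives were DESeq2 1.42.0, limma 3.58.1, other filters and scalings, thinned cells and leaving out each collection. The 85 unclassified cells were not used in contrasts. Some genes are not reported here.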

Additional observations from a re-analysis of the deposited data

Results flagged for a closer look

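For 68 genes the levels in the 7 Noradrenergic3 collections were examined for 1 collection far from the rest, and 14 had one, where chance gives about 1 in 20. Several of these genes, among them Apod, Cxcl1, Ifitm3, Dmkn and 1700094D03Rik, were named for their variation in these same data. An excess over that rate is therefore partly built in. Of these, 6 were the P11 female collection of 6 cells and 2 the P34 female collection of 3 cells. At P11, Dbh (6.926), S100a13 (0.8822) and Cpne9 (0.1323) were far below the others, and Adm (2.691), Nrep (4.852) and Cpne5 (0.04411, a single count) far above. At P34, Dmkn (2.737) and Pde1a (0.08553) were far above. In the P30 female collection Apod (2.323), Cxcl1 (1.484) and Ifitm3 (1.406) stood far above, each with a large part of its counts in 1 cell. At P33 (female) 1700094D03Rik (1.315) and at P31 (female) Gabrg1 (0.006134, a single count) were far above, and at P38 (male) Plscr1 (1.274) was far below. All values are counts per 10000.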

How the results depend on the processing

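Of 785 alternative values for the named genes, 737 kept their call and 7 reversed. Those were Th, Noradrenergic3 against the other 4 noradrenergic identities (-0.143 with DESeq2, -0.0781 with relative log expression size factors, -0.0410 with edgeR's own filter, and -0.00743 to 0.135 when each collection was left out, the lowest without P30 female) and Dbh, Noradrenergic3 against the other 4 noradrenergic identities (-0.0399, -0.0376 and -0.00883 under the first 3). The counts of called genes moved more. With DESeq2 they were 109 against the other 4, 81 against Noradrenergic1, 34 against Noradrenergic2 and 161 against Noradrenergic5. With edgeR's own filter they were 81 against the other 4, 26 against Noradrenergic2, 121 against Noradrenergic4, 125 against Noradrenergic5 and 312 against Ach1. With thinned cells they were 133 against the other 4, 56, 31, 124 and 154 against Noradrenergic1, 2, 4 and 5, and 237 against Ach2. With libraries of at least 2 cells they were 117 against Noradrenergic2 and 109 against Ach1. Without the replicate block for the collection every count stayed within 1.5 times (169 against the other 4, 61 against Noradrenergic2). Leaving out each collection gave 117 to 207 against the other 4, 69 to 146, 40 to 70, 106 to 215 and 109 to 274 against Noradrenergic1, 2, 4 and 5, 387 to 630 against Ach1, 198 to 424 against Ach2, 118 to 434 against Glutamatergic, 2 to 6 for sex and 37 to 49 genes of CV at least 1. The lowest came without P31 female (other 4, Noradrenergic2, 4 and 5, Glutamatergic), P38 male (Noradrenergic1) or P29 male (Ach2); sex gave 6 without P29 male and 8 with no filter. Genes of CV at least 1 numbered 118 at a mean of at least 0.5, 14 at 2 and 11 after thinning. A 3-fold rule left 60 genes at P11. The likeness of Noradrenergic3 pairs was 0.511 at 10000 and 0.612 at 20000 counts. The sex difference in share turned to 5.55 points with at least 10 noradrenergic cells per collection. The cause of these changes was not tested. The depth of a library limits rare genes: 1 to 3 counts carry the intervals given.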
